A study of Mus musculus with 6 samples.

Results

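The 81 cytoplasmic ribosomal protein (RP) genes described here were chosen by name among 15473 genes of a single-cell RNA table. They were the symbols of Rpl or Rps and a number, the stalk genes Rplp0, Rplp1 and Rplp2, and Rpsa. After the number only a letter a, x, y or l and a further number were allowed. The 81 comprise 46 large-subunit genes, 32 small-subunit genes and 3 stalk genes. Symbols with other endings, such as Rpl36al and Rps27rt, were not members. The choice used names and no measured value. Rpl3l, Rpl10l and Rps4l were not analysed here.

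The cells were CD4 T cells sorted from the mouse colonic lamina propria, and all mice carried Foxp3{delta}EGFPiCre/WT, an allele of Foxp3 with EGFP and iCre over a wild-type allele, together with R26lsl-tdTomato/wt, a tdTomato at Rosa26 that Cre switches on. The 2 sorted gates were tdTomato+GFP+ cells, positive for both reporters, and tdTomato-GFP- cells, negative for both. Each gate filled 1 lane of a 10x Chromium run with 3 hashed replicates, so the gate and the lane cannot be told apart. The labels give neither the animals' age nor how many animals stand behind a replicate, and no label ties a hashed replicate of 1 gate to an animal of the other.

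After removal of hashtag counts, 18874 of 23595 cells carried a replicate label. The 3 tdTomato+GFP+ replicates held 1747 to 4610 cells and 7424984 to 20153550 unique molecular identifiers (UMIs, counted cDNA molecules), and the 3 tdTomato-GFP- replicates 1836 to 5159 cells and 7925662 to 23289046 UMIs. Another 4721 cells had no replicate label and entered no comparison. The lanes shared 174 cell barcodes. Foxp3 was detected at 115 to 144 CPM (counts per 1000000 UMIs) in tdTomato+GFP+ replicates and 168 to 194 CPM in tdTomato-GFP- replicates, which checks no deletion, since the part of the locus these reads cover is not given in the sources used here. The T cell genes Cd3e, Cd3g, Cd4, Trac and Trbc2 summed to 3912 to 4287 CPM against 3024 to 3308 CPM.

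RP genes encode the structural proteins of the small and large ribosomal subunits. Their mRNAs are among the most abundant of a cell and most begin with a 5′ terminal oligopyrimidine (TOP) tract, a run of C and T bases at the start of the transcript through which mTORC1 and Larp1 control their translation. T cells raise ribosome production when they leave the resting state and begin to grow and divide.

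The bases around the annotated start are shown for the members on which the results below turn, 4 with the largest falls in tdTomato+GFP+ cells (Rpl12, Rpl13a, Rps21, Rps27) and 6 with smaller falls or none (Rpl41, Rps2, Rps4x, Rpl15, Rps27l, Rpl7l1). Each line runs 5′ to 3′ from 20 bases before the start to 20 bases from it, in RefSeq's GRCm38.p6 annotation, and capitals mark the longest run of C and T.
Rpl12: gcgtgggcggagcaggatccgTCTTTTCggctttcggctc
Rpl13a: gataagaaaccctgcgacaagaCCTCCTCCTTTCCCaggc
Rps21: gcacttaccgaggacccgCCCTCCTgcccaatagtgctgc
Rps27: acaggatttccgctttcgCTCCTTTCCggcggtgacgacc
Rpl41: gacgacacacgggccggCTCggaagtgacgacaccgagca
Rps2: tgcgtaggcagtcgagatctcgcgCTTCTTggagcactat
Rps4x: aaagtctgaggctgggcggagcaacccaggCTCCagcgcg
Rpl15: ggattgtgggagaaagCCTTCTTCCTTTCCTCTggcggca
Rps27l: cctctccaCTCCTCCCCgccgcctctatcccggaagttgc
Rpl7l1: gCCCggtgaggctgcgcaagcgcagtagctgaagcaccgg
These windows lie at chr2:32961692-32961731 on the plus strand (Rpl12), chr7:45128726-45128765 on the minus strand (Rpl13a), chr2:180257359-180257398 on the plus strand (Rps21) and chr3:90213629-90213668 on the minus strand (Rps27). The others lie at chr10:128549149-128549188 (Rpl41, minus), chr17:24720043-24720082 (Rps2, plus), chrX:102189372-102189411 (Rps4x, minus), chr14:18270967-18271006 (Rpl15, minus), chr9:66946066-66946105 (Rps27l, plus) and chr17:46782637-46782676 (Rpl7l1, minus). A run of at least 7 C or T bases on the sense strand was present in this window in 35 of the 61 RP genes with a promoter entry, 57.4%, and in 24.2% of all 27025 genes with one. The run was 14 bases in Rpl13a, 9 in Rps27 and 7 in Rpl12 and Rps21, and it was 17 in Rpl15, 9 in Rps27l, 6 in Rps2, 4 in Rps4x and 3 in Rpl41 and Rpl7l1. The runs of Rps27l (-12 to -4), Rpl41 (-3 to -1) and Rpl7l1 (-19 to -17) lay wholly before the annotated start, counted as base 1. Those of Rps21, Rps27 and Rpl15 spanned the start, and those of Rpl12, Rpl13a, Rps2 and Rps4x lay after it. Long runs occurred in both sets, and the match describes letters in an annotated window, not a measured transcript start.

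The RP genes together took a smaller share of the mRNA in tdTomato+GFP+ cells. Their share of UMIs was 14.9%, 16.1% and 17.2% in tdTomato+GFP+ replicates 1 to 3, and 19.5%, 20.2% and 20.9% in tdTomato-GFP- replicates 1 to 3. The 3 tdTomato+GFP+ values all lay below the 3 tdTomato-GFP- values, and the means of 16.1% ± 1.18 and 20.2% ± 0.68 (SD, n = 3 each) differed by -4.12 percentage points. The share of mitochondrial transcripts was 0.76% ± 0.02 in tdTomato+GFP+ against 0.87% ± 0.004 in tdTomato-GFP- replicates. Median depth per cell was 3502 to 3771 UMIs in tdTomato+GFP+ and 3779 to 3905 UMIs in tdTomato-GFP- replicates, and among cells of 2000 to 6000 UMIs the RP difference was -4.77 points. A share cannot tell fewer RP molecules from more molecules of other genes. The lower share in tdTomato+GFP+ cells held in cells of 2500 to 3500 UMIs (14.7% ± 0.77 against 19.5% ± 1.03) and of 5000 to 7500 UMIs (17.7% ± 1.28 against 21.4% ± 0.87), whereas up to 1500 UMIs the gates overlapped (11.5% ± 1.96 against 13.0% ± 1.21).

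**Figure D1:**
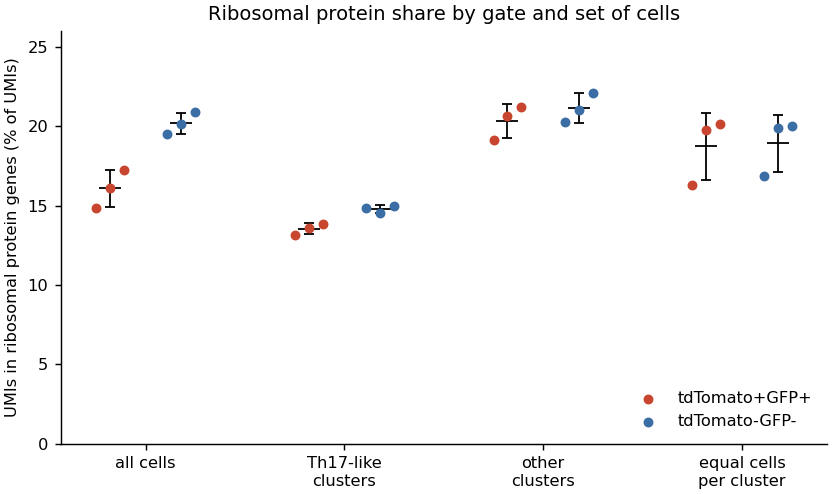
Share of UMIs in the 81 RP genes (percent, y axis) per hashed replicate (points), with mean and SD (bars, n = 3), for tdTomato+GFP+ and tdTomato-GFP- cells in 4 sets of cells (x axis). The gates do not overlap over all cells or in the Th17-like clusters, and overlap in the other clusters and with equal cells per cluster.

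The share differed more between T cell states than between gates. The authors' 16 phenograph clusters were named from fixed markers where these allowed it (see the plot of shares by cluster). The naive or central memory-like cluster 9, with Ccr7, Lef1, Tcf7, S1pr1 and Klf2 raised, had the highest RP share, 33.2% over 756 cells. Cluster 0, which was Th2-like by Gata3, Il4, Il5, Il13 and Il1rl1, followed with 24.5%, the Tfh-like cluster 7 with 22.0%, the Cytotoxic-like cluster 15 with 21.2% and the Cycling-like cluster 10 with 19.2%. The 5 Th17-like clusters, marked by Il17a, Il17f and Ccl20, lay at 15.0% (cluster 2), 14.01% (cluster 3), 12.9% (cluster 1), 12.8% (cluster 13) and 11.7% (cluster 12). Cluster 5, which stayed unnamed although all 7 regulatory T cell markers were raised in it, had 15.6%. Over replicates with at least 20 cells, cluster 9 (31.4% to 34.2%) overlapped with no other cluster, while neighbours in the order from cluster 0 (23.6% to 25.3%) down to cluster 13 overlapped with each other. Cluster 14 had 4.64% with a median of 1090 UMIs per cell, against 3224 to 8615 UMIs in the other clusters, and a mitochondrial share of 2.61%. These shares are a description without a test, since the clusters were made from the same cells' gene counts.

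**Figure D2:**
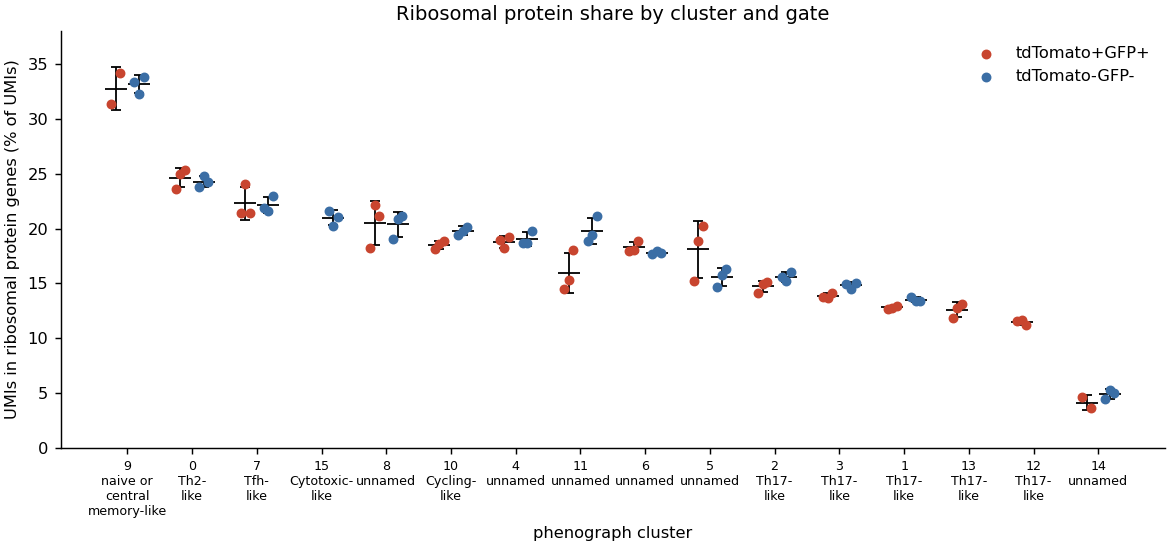
Share of UMIs in RP genes (percent, y axis) per hashed replicate with at least 20 cells (points, mean and SD as bars) in each phenograph cluster (x axis, from the highest to the lowest pooled share), tdTomato+GFP+ left of tdTomato-GFP-. The naive or central memory-like cluster stands highest, the Th17-like clusters stand low, and within most clusters the gates lie close together.

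Between the naive or central memory-like and the Th17-like clusters of the tdTomato-GFP- gate, almost every member shifted together. The log2 ratio of CPM was above 0 for 79 of 81 RP genes, with a median of 1.11, while 774 of 3088 other genes of at least 50 CPM were above 0, with a median of -0.37. These ratios were pooled over replicates and are a description without a test. The higher RP share of the naive or central memory-like cluster, given above, already sets the direction of the members' sum. CPM add up to a fixed total, so a larger RP share by itself lowers the CPM of other genes. How much of their median came from this was not tested. Rps20 had 8171 CPM in the naive or central memory-like cluster and 2201 CPM in the Th17-like clusters, a log2 ratio of 1.89. Rps19, mutated in human Diamond-Blackfan anaemia, had 5533 and 1543 CPM (1.84), and Rpl12, at the base of the ribosomal stalk, 1876 and 616 CPM (1.60). A smaller ratio stood at Rpl7l1, with 41.9 and 37.3 CPM (0.17). Rps27l, a p53-induced paralogue of Rps27, went the other way, with 73.8 CPM in the naive or central memory-like cluster and 151 CPM in the Th17-like clusters (-1.02), whereas Rps27 itself had 7062 and 2490 CPM. Rpl39l, known for its expression in testis, had 1 and 26 UMIs.

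**Figure D3:**
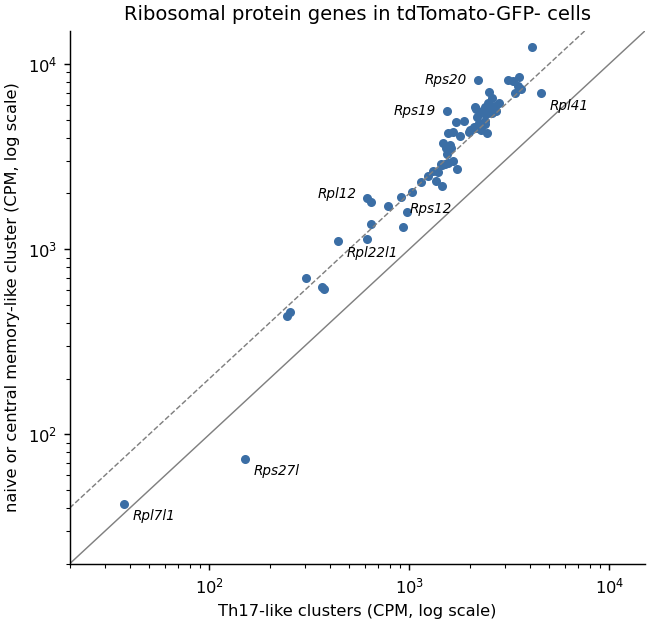
CPM of RP genes in tdTomato-GFP- cells, pooled over replicates, in the naive or central memory-like cluster (y axis) and the Th17-like clusters (x axis), both on log scales. The solid line marks equal levels and the dashed line a ratio of 2; Rpl39l, with 1 UMI in the naive or central memory-like cluster, is not drawn, and Rps27l is the member below the solid line among those drawn.

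Across 29 groups of cells, each a cluster in 1 gate with at least 50 cells, 74 of the 81 members followed the summed RP level with a Pearson r above 0.9 of log2 CPM. The lowest were Rpl39l (0.33), Rpl7l1 (0.47) and Rps27l (0.58). Of 3088 genes outside the list, the most alike included Eef1b2 (0.99) and Eef1a1 (0.97), subunits of the elongation factor that delivers tRNA, the initiation factor subunit Eif3e (0.98) and Gm11808 (0.97). Each member is part of the sum it was compared with, and the share of other genes above 0.9 was not computed. Both gates of cluster 14 were among the groups, at pooled RP shares of 4.26% and 4.81%. The other groups lay at 11.5% to 33.2%, and how far cluster 14 shaped the correlations was not tested. The 29 groups share lanes, replicates and a total to which all genes sum, so the correlations are a description without a test.

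The gates differed in which cells they held. Th17-like clusters made up 65.4% ± 7.39 of tdTomato+GFP+ cells and 11.2% ± 1.56 of tdTomato-GFP- cells (SD, n = 3 each). Within Th17-like cells the RP share averaged 13.5% ± 0.34 for the tdTomato+GFP+ gate, against 14.8% ± 0.23 for tdTomato-GFP-, with no overlap between replicates, and in all other clusters together it was 20.4% ± 1.07 for tdTomato+GFP+, against 21.1% ± 0.94 for tdTomato-GFP-. There replicates 1, 2 and 3 had 19.2%, 20.7% and 21.2% in the tdTomato+GFP+ gate, against 20.2%, 21.0% and 22.1% in the tdTomato-GFP- gate. The gates overlapped, while the difference within each replicate number was below 0 (-1.08, -0.33 and -0.89 points). Equal numbers of cells were then drawn from each cluster in both gates, within each replicate number. The shares were 18.7% ± 2.11 for tdTomato+GFP+, against 18.9% ± 1.78 for tdTomato-GFP-, a difference of -0.19 points. Within replicate numbers 1, 2 and 3 the differences were -0.56, -0.12 and 0.11 points.

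Gene by gene over all cells, 75 of 81 RP genes fell in tdTomato+GFP+ relative to tdTomato-GFP- cells and 0 rose (edgeR quasi-likelihood test on UMIs summed per replicate, Benjamini-Hochberg adjusted p below 0.05 over 11933 genes). Over all genes 13.4% were called lower and 13.0% higher. The log2 fold changes of the 75 ran from -0.78 to -0.14, and the median of all 81 was -0.35, against -0.002 over all genes. On CPM scaled by TMM (trimmed mean of M-values), 77 members had 3 tdTomato+GFP+ values below all 3 tdTomato-GFP- values, as did 21.5% of all genes. The fall covered 42 of 46 large-subunit, 30 of 32 small-subunit and 3 of 3 stalk genes. In cells outside the Th17-like clusters, a set chosen after seeing the data, 5 of 81 members fell (Rpl12, Rps21, Rps27, Rpl13a and Rplp1). That is near the 5.52% of 11150 genes called lower. With 1 cell per T cell clonotype 59 of 80 fell, with a median of -0.21, where 7.97% of 10241 genes were called lower.

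The largest falls were in Rpl12, Rpl13a, Rps27, Rps21, Rplp1, Rps19, Rps12, Rps16, Rpl17 and Rpl23a, with log2 fold changes from -0.78 to -0.49. Rpl12 had 508, 581 and 630.2 TMM-scaled CPM in tdTomato+GFP+ replicates and 917, 999.9 and 1046 in tdTomato-GFP- replicates, so the gates did not overlap (log2 fold change -0.78 ± 0.08 SE, adjusted p = 0.0005). Rpl13a, a large-subunit protein that in human myeloid cells also leaves the ribosome to silence inflammatory mRNAs, had 695, 773 and 832 CPM against 1123, 1162 and 1249 CPM (-0.62 ± 0.07, adjusted p = 0.00057). Rps21 had 1293, 1474 and 1539 CPM against 2027, 2203 and 2237 CPM (-0.59 ± 0.07, adjusted p = 0.00068). In each of these 3 genes the lowest value was that of tdTomato+GFP+ replicate 1. The small-subunit protein Rps27 had 2182, 2555 and 2694 CPM against 3464, 3745 and 3954 CPM (-0.59 ± 0.08, adjusted p = 0.0021), again without overlap.

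The stalk, which recruits translation factors to the ribosome, is built of Rplp0 and the paired Rplp1 and Rplp2. Rplp1 had 1529, 1696 and 1687 CPM in tdTomato+GFP+ replicates, against 2292, 2511 and 2454 CPM in tdTomato-GFP- replicates, without overlap (-0.56 ± 0.06, adjusted p = 0.0003). Rplp0 and Rplp2 fell by 0.33 and 0.34 on the log2 scale. Rpsa, the small-subunit protein also known as the laminin receptor, changed by -0.36 ± 0.07, Rps6, the substrate of the S6 kinases, by -0.41 ± 0.06, and Rps27a, made as a ubiquitin fusion, by -0.35 ± 0.06. All 4 X-linked members fell, with -0.42 for Rpl39, -0.42 for Rpl36a, -0.40 for Rpl10 and -0.20 for Rps4x (adjusted p = 0.044 for the last). Rpl5, which with Rpl11 binds Mdm2 when ribosome assembly is disturbed, fell by 0.44 on the log2 scale (adjusted p = 0.00052), and Rpl11 stood at -0.15 ± 0.06 without passing (adjusted p = 0.087), although with the replicate block it did (adjusted p = 0.00053). The gene with the highest count, Rps24, fell by 0.42 on the log2 scale, whereas the second, Rpl41, had 4802, 4919 and 5202 CPM against 5168, 5455 and 5558 CPM and overlapped (-0.12 ± 0.05, adjusted p = 0.1; with the replicate block 0.0011). Rpsa, Rpl13 (-0.31) and Rpl19 (-0.30) were the next by count.

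Members with a paralogue did not all move as their partner did. Rpl22, needed for mouse alpha beta T cell development, and Rpl22l1 both fell, by 0.30 and 0.35 on the log2 scale. Rps27l had 171, 158 and 145 CPM in tdTomato+GFP+ replicates and 137, 146 and 131 CPM in tdTomato-GFP- replicates, the reverse order of Rps27, with overlap and without passing (0.19 ± 0.07, adjusted p = 0.087). With the replicate number as a block it did pass (0.19, adjusted p = 0.019), as it did without tdTomato+GFP+ replicate 3 (0.25, adjusted p = 0.034). Rpl7l1 had 41.6, 42.8 and 41.9 CPM against 35.7, 36.2 and 40.9 CPM, without overlap and without passing (0.17 ± 0.07, adjusted p = 0.094), while Rpl7 fell by 0.28 on the log2 scale. Rpl3 fell by 0.20 on the log2 scale (adjusted p = 0.037). Rpl39l had 151 UMIs in all and between 0 and 6.78 CPM, and did not pass (adjusted p = 0.28; with the replicate block 0.0055). Rps15 (-0.31) and Rpl23a (-0.49) were the other low-count members.

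**Figure D4:**
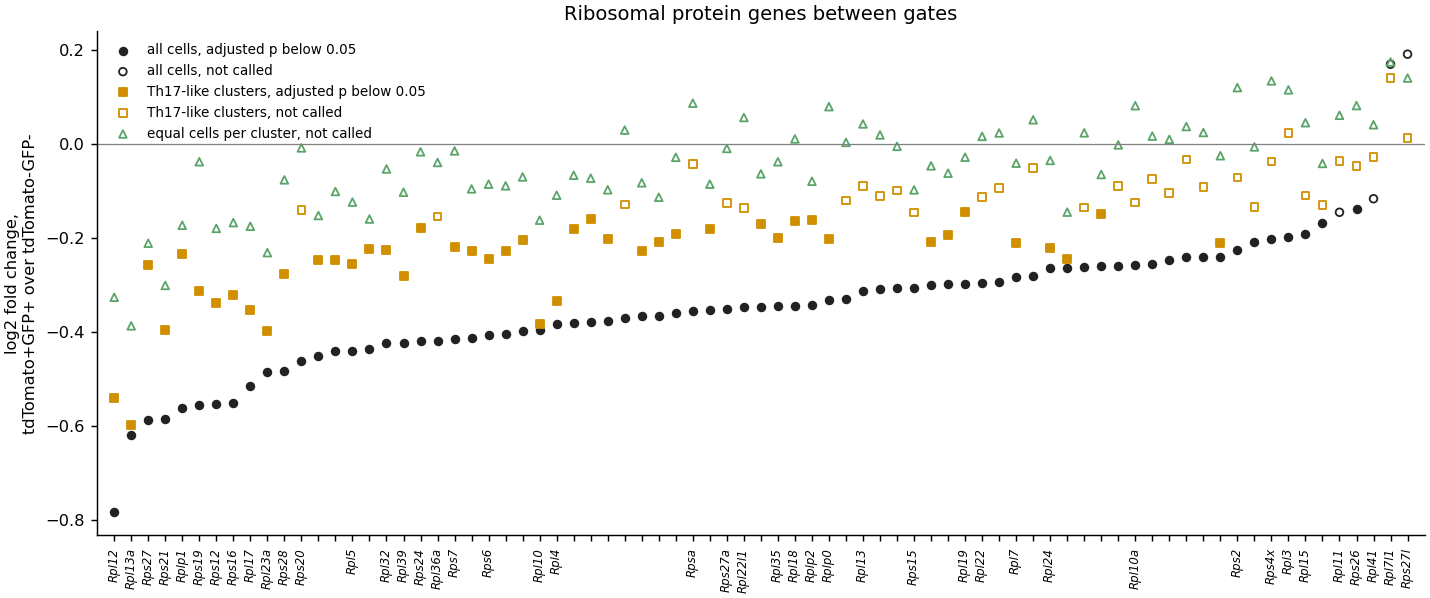
Log2 fold change, tdTomato+GFP+ over tdTomato-GFP- (y axis), of 77 RP genes (x axis, ordered by the change over all cells, with symbols for members named in the text; Rpl39l is left out for low counts) over all cells, in Th17-like clusters and with equal cells per cluster; filled symbols passed an adjusted p of 0.05. Over all cells 73 of the 77 genes drawn are filled and below 0, in Th17-like clusters 45, and with equal cells per cluster none is filled. The fits drawn have no replicate block.

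Within the Th17-like clusters alone, 46 of 80 RP genes fell in tdTomato+GFP+ cells and 0 rose, against 6.45% of 10075 genes called lower, and the RP median was -0.18. With the replicate number as a block, 60 of 80 fell, where 9.59% of genes were called lower. All 46 had also fallen over all cells. They were 26 of 45 large-subunit, 17 of 32 small-subunit and 3 of 3 stalk genes. Of the 80, 67 had 3 tdTomato+GFP+ values below all tdTomato-GFP- values, as did 14.5% of all genes. The largest fall was in Rpl13a, with 623, 661 and 688 CPM in tdTomato+GFP+ replicates, against 969.8, 956 and 1061 CPM in tdTomato-GFP- replicates (-0.60 ± 0.06, adjusted p = 5.9e-06). Rpl12 had 424, 439.9 and 444 CPM against 612, 618 and 676 CPM (-0.54 ± 0.06, adjusted p = 1.7e-05). Rps21, Rpl23a, Rpl10, Rpl17, Rpl4, Rps12, Rps16 and Rps19 followed with -0.40 to -0.31. Rpl3 (0.02 ± 0.04), Rpl41 (-0.03 ± 0.04) and Rps4x (-0.04 ± 0.04) did not pass and overlapped between gates. The Th17-like cells were spread unequally: cluster 1, whose RP share was lower than that of clusters 2 and 3, held 37.0% of those of the tdTomato+GFP+ gate, against 24.3% of those of tdTomato-GFP-.

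For equal cells per cluster, the draw matched the gates' cluster make-up within each replicate number, a pairing that the main fit left out. In the main fit 0 of 80 RP genes passed, where 1.88% of 10669 genes were called lower and 0.919% higher, and the RP median was -0.04. The sign of that median depended on single replicates: it was 0.06 without tdTomato+GFP+ replicate 1 (59 of 80 members above 0) and 0.01 without tdTomato-GFP- replicate 2, against -0.11 without tdTomato-GFP- replicate 1. At an unadjusted p below 0.05 there were 3 (Rpl13a, Rps21 and Rpl23a), against 1684 of all 10669 genes. DESeq2 called 1, Rpl13a, where it called 236 of 10669 genes lower. Rpl13a had 747, 933 and 959.6 CPM in tdTomato+GFP+ replicates, against 1033, 1184 and 1236 CPM in tdTomato-GFP- replicates, and the gates did not overlap (-0.39 ± 0.11, adjusted p = 0.11). In both gates replicate 1 lay below replicates 2 and 3. With the replicate number as a block, 18 of 80 fell and 4 rose, against 7.55% and 5.31% of all genes. The number that rose was near the share over all genes. The 18 included Rpl13a (-0.39 ± 0.04, adjusted p = 6.2e-06), Rpl12 (-0.33 ± 0.04), Rps21 (-0.31 ± 0.03) and Rps27 (-0.22 ± 0.03), and the 4 that rose were Rps4x (0.13 ± 0.03, adjusted p = 0.0048), Rps2 (0.12 ± 0.03), Rpl3 (0.12 ± 0.03) and Rpsa (0.08 ± 0.03, adjusted p = 0.046).

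The members' mutual proportions differed too. When each replicate was scaled to its summed RP UMIs, which moved the median of all genes by 0.34 on the log2 scale, 11 RP genes were lower and 8 higher relative to the RP pool in tdTomato+GFP+ cells, against 5.32% and 48.7% of all genes. The lower ones were led by Rpl12 (-0.44 ± 0.07, adjusted p = 0.001), Rpl13a (-0.28 ± 0.06), Rps27 (-0.25 ± 0.05) and Rps21 (-0.24 ± 0.05). The higher ones included Rps27l (0.54 ± 0.12, adjusted p = 0.0059), Rpl7l1 (0.51 ± 0.08), Rpl41 (0.23), Rps26 (0.21), Rpl11 (0.20), Rpl3 (0.15) and Rps4x (0.14). In the Th17-like clusters, where the scaling moved the median of all genes by 0.17, 8 were lower (3.38% of all genes) and 2 higher (14.7% of all genes), namely Rpl3 (0.19 ± 0.05) and Rpl41 (0.14 ± 0.04). Of the lower genes 6 were the same, 54.5% of those over all cells and 75.0% of those in Th17-like clusters: Rpl12, Rpl13a, Rpl17, Rps12, Rps16 and Rps21.

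Single clusters were compared where each of the 6 replicates held at least 20 cells, which left 11 clusters. They come from the same 6 replicates and 2 lanes and are not independent of each other. In the Th17-like clusters 22 RP genes fell in cluster 1, 11 in cluster 2 and 21 in cluster 3, with 3.88%, 2.75% and 3.33% of all genes called lower. Rpl13a changed by -0.61 ± 0.07, -0.50 ± 0.07 and -0.66 ± 0.08 there, and Rpl12 by -0.51 ± 0.08, -0.50 ± 0.08 and -0.46 ± 0.08. Scaled to total UMIs without TMM the counts were 8, 9 and 11, with 2.93%, 2.37% and 2.51% of all genes called lower. With the replicate block cluster 2 had 17, with 3.48% of all genes called lower.

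Outside the Th17-like clusters the calls differed from cluster to cluster. In the Th2-like cluster 0, Rpl13a (-0.31 ± 0.06) and Rps21 (-0.24 ± 0.06) fell and Rps2, near the mRNA entry channel, rose (0.22 ± 0.05, adjusted p = 0.0355), where 1.74% of genes were called lower and 0.805% higher. Both counts in cluster 0 were near these shares. With the replicate block 4 fell and 3 rose there, where 2.53% of genes were called lower and 1.48% higher. In cluster 4 the 3 that fell were Rpl12, Rpl13a and Rps21 (background 0.921%). In cluster 6, which had 4 of 5 Th1 markers raised and stayed unnamed, 6 fell and 7 rose (3.2% and 2.0% of all genes): Rpl13a (-0.46 ± 0.06), Rpl23a (-0.37 ± 0.09) and Rpl12 (-0.33 ± 0.07) were the largest falls, and Rpl22l1 (0.28 ± 0.08), Rpl3 (0.24 ± 0.05) and Rps2 (0.23 ± 0.05) the largest rises. In the Cycling-like cluster 10, 9 fell (2.08% of all genes), led by Rpl12 (-0.37 ± 0.07), Rps27 (-0.33 ± 0.06) and Rps21 (-0.29 ± 0.07). No RP gene passed in the Tfh-like cluster 7 or in cluster 8 with edgeR, and none passed there with the replicate block or without TMM. Few genes of any kind passed: 6 lower and 20 higher of 5068 in cluster 7, and 30 lower and 18 higher of 6574 in cluster 8. An unadjusted p below 0.05 was found for 7 and 0 RP genes, against 430 and 538 of all genes. In both clusters tdTomato+GFP+ replicate 1 held 20 cells.

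Clusters 11 and 5 stood at the extremes. In cluster 11, 14 of 79 RP genes fell (2.07% of all genes) and the RP share was 14.5%, 15.3% and 18.04% in tdTomato+GFP+ against 18.8%, 19.4% and 21.1% in tdTomato-GFP- replicates, from 21 to 83 and 41 to 113 cells. Rpl12 had 363, 595 and 869.5 CPM against 1097.5, 1096 and 1318 CPM (-0.87 ± 0.21, adjusted p = 0.0325). The block gave 38 calls (2.71% of all genes) and total-UMI scaling 7 (1.69% of all genes). Lars2 stood first among the 10 leading genes of this cluster. Gm42418, the epithelial gene Reg3b and the smooth-muscle gene Acta2 were among them too, and the part of these genes in the result was not tested. In cluster 5 the RP share was 15.2%, 18.9% and 20.3% in 24, 80 and 58 tdTomato+GFP+ cells, against 14.7%, 15.8% and 16.3% in 229 to 783 tdTomato-GFP- cells, so that the gates overlapped through replicate 1. There only Rpl15 of the 80 members rose, with 1605, 2029 and 1885 CPM against 1178, 1286 and 1229 CPM (0.59 ± 0.13, adjusted p = 0.016). That count was near the 1.51% of all genes called higher. The RP median was 0.28, against -0.003 over all genes, and 76 of the 80 members were above 0. In the same fit 35 of the 80 had an unadjusted p below 0.05, against 1073 of all 6491 genes. With the block 20 of 80 rose (2.36% of all genes).

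**Figure D5:**
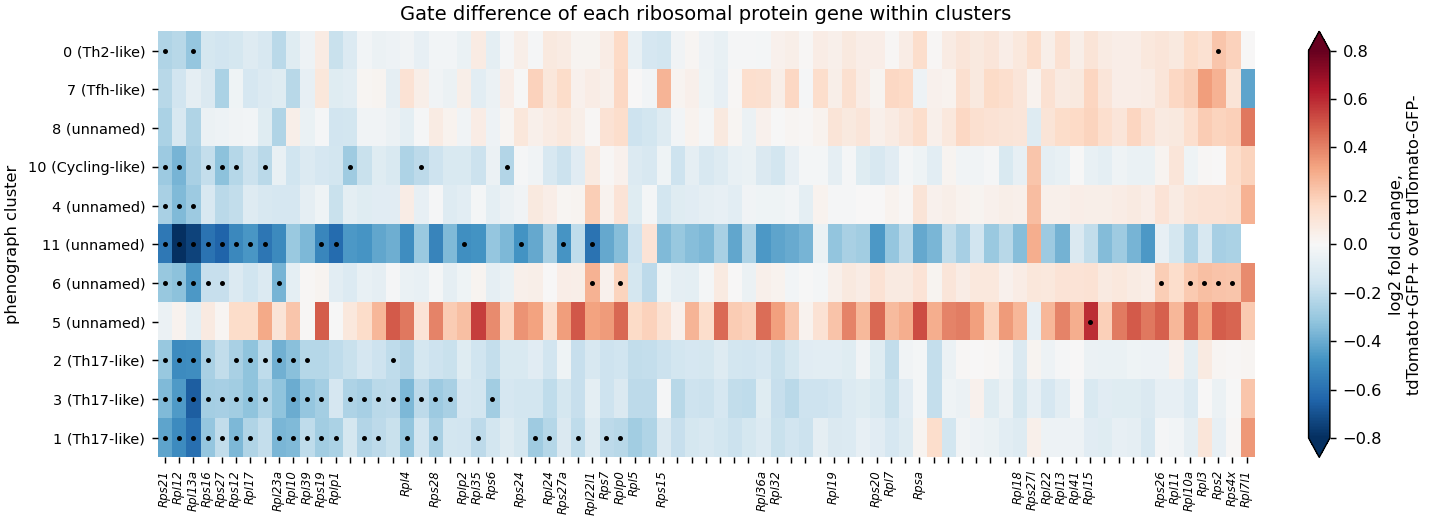
Log2 fold change, tdTomato+GFP+ over tdTomato-GFP- (colour, from -0.8 to 0.8), of 77 RP genes (columns, from the most to the fewest clusters in which they fell, with symbols for members named in the text) in 11 phenograph clusters (rows); black dots mark an adjusted p below 0.05 in that cluster and blank cells were not tested. Rps21, Rpl12 and Rpl13a at the left are below 0 in nearly all rows, while the other genes are mostly above 0 in cluster 5 and below 0 in cluster 11.

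Over these 11 clusters, Rps21 fell in 8 and Rpl12 and Rpl13a in 7 each, Rps16 in 6, and Rps27 and Rps12 in 5 each. Only Rps21, Rpl13a and Rplp1 of the 79 members tested in every cluster were below 0 in all 11, with ranges of -0.57 to -0.05 for Rps21 and -0.74 to -0.07 for Rpl13a, and Rpl12 was below 0 in 10. No cluster called 46 of the members lower, and 8 members rose in at least 1 cluster. The share of all genes that met the same criteria was not computed, so these counts describe the members alone.

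The gate difference itself differed between cluster 0 and the Th17-like clusters for 14 of 80 RP genes (edgeR interaction of gate and class, 12 sums, replicate as a term; 1.45% of 9971 genes were called in that direction). All 14 were more reduced, or less raised, in Th17-like tdTomato+GFP+ cells. Rps19 had a log2 fold change of -0.31 ± 0.05 in Th17-like clusters and 0.07 ± 0.06 in cluster 0, each in its own fit, with an interaction of 0.38 ± 0.07 (adjusted p = 0.0022), and Rplp0 one of -0.20 ± 0.04 and 0.16 ± 0.05, with an interaction of 0.37 ± 0.06 (adjusted p = 0.0018). The count depended on single replicates: it was 34 without tdTomato+GFP+ replicate 1, 2 without tdTomato+GFP+ replicate 2, 4 without tdTomato+GFP+ replicate 3, 3 without tdTomato-GFP- replicate 1, 12 without tdTomato-GFP- replicate 2 and 2 without tdTomato-GFP- replicate 3. The count over all genes in that direction moved as well. In the same order it was 222 of 10066, 61 of 10013, 98 of 10122, 84 of 9725, 114 of 10122 and 76 of 10357.

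Other genes of translation moved with the RP genes in part. Fau, which encodes a small-subunit protein fused to a ubiquitin-like domain, fell over all cells by 0.22 on the log2 scale (adjusted p = 0.046). Each list below is read against the 13.4% of all genes called lower, the 13.0% called higher and the median of -0.002 over all cells. Of 31 tested translation factors and TOP-type genes, 11 fell (35.5%) and 1 rose (median -0.10). Rack1, the receptor for activated kinase on the small subunit, had 573, 609.6 and 616 CPM in tdTomato+GFP+ replicates, against 788, 848 and 849 CPM in tdTomato-GFP- replicates (-0.47 ± 0.05, adjusted p = 0.00049). Eef1b2 (-0.36), Eef1g (-0.30), Eif4a2 (-0.28), Tpt1 (-0.25), Eef2 (-0.24) and Eef1a1 (-0.19) fell too, Eif4g2 rose (0.21), and the nucleolar chaperone Npm1 did not pass (-0.10, adjusted p = 0.16). Of 10 tested snoRNA host genes, TOP-type transcripts carrying snoRNAs in their introns, 7 fell (median -0.37), among them Snhg5 (-0.96), Snhg6 (-0.50), Snhg12 (-0.43) and Snhg8 (-0.39), and Gas5 fell by 0.39 on the log2 scale.

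Of the ribosome biogenesis genes, 6 of 47 fell and 0 rose (median -0.05). That is 12.8% called lower, near the share over all genes. The 6 were led by Wdr12 (-0.54), Nop56 (-0.38), Gnl3 (-0.37) and Taf1d (-0.37). With the replicate block 10 fell, where 2073 of 11933 genes were called lower. In the Myc network, Myc (-0.77 ± 0.14, adjusted p = 0.0081) and Max (-0.36) fell and Mxi1 rose (0.21) among 10 tested genes, too few for a share to be set against all genes. Mitochondrial RP genes, which build the ribosome of the mitochondrion, went the other way: 26 of 78 rose (33.3%) and 0 fell (median 0.12), with the largest change in Mrps6 (0.52 ± 0.07, adjusted p = 0.0015), followed by Mrpl55 (0.37), Mrpl13 (0.37) and Mrps11 (0.35). Within the Th17-like clusters 4 of 31 translation factors and TOP-type genes fell and 1 rose. There 1 of 10 snoRNA hosts and 1 of 47 biogenesis genes fell, and 4 of 78 mitochondrial RP genes rose. Over all genes 650 of 10075 fell and 479 rose in these clusters. With equal cells per cluster, 0 or 1 gene per list passed in either direction, and those that did were Mrps6, Ddit4, Mxd1 and Btg2.

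In the mTORC1 and 4E-BP list, 5 of 32 rose (15.6%) and 3 fell (9.38%), both near the shares over all genes, with a median of -0.02. Eif4ebp1, which holds back cap-dependent translation when mTORC1 is low, had 52.1, 56.6 and 50.7 CPM in tdTomato+GFP+ replicates, against 31.3, 32.1 and 28.9 CPM in tdTomato-GFP- replicates (0.79 ± 0.07, adjusted p = 0.00016). Larp1, which binds TOP mRNAs, had 54.4, 55.6 and 52.7 CPM against 75.9, 75.7 and 78.2 CPM (-0.50 ± 0.05, adjusted p = 0.00025). Neither gene overlapped between gates. Both also passed within the Th17-like clusters, with 0.55 ± 0.10 for Eif4ebp1 (adjusted p = 0.0023) and -0.44 ± 0.10 for Larp1 (adjusted p = 0.0091). Of the whole list 4 of 29 rose and 1 fell in those clusters. Over all cells the mTORC1 inhibitor Ddit4 (0.73), Lamtor4 (0.59) and Lamtor5 (0.40) rose, Rragd (-2.08, at 0.6 to 6.26 CPM) and Eif4ebp2 (-0.35) fell, and Mtor (0.23, adjusted p = 0.093) and Deptor (-0.37, adjusted p = 0.61) did not pass. Of 14 genes of translation repression and ribosome stress, 4 fell (Eef2k -2.09, Slfn1 -0.83, Eif2ak3 -0.51, Btg2 -0.50) and Btg1 rose (0.32), with a median of -0.20.

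Markers of other cell types moved with the gates in part. The 5 gamma delta genes summed to 248 to 321 CPM in tdTomato+GFP+ replicates, against 80.5 to 141 CPM in tdTomato-GFP- replicates, almost all of it Tcrg-C1 and Trgv2, and the defining Trdc was at 0 to 1.74 CPM against 0.88 to 3.66 CPM. The 5 myeloid genes summed to 324 to 374 CPM against 278 to 295 CPM, and the 3 NK and innate lymphoid genes to 0.4 to 1.1 CPM against 9.97 to 10.4 CPM. B and plasma (6 genes, 238 to 1975 CPM against 558 to 1615 CPM), epithelial (7 genes, 7.99 to 35.5 CPM against 7.94 to 37.7 CPM) and stromal genes (5 genes, 35.4 to 81.5 CPM against 51.6 to 78.7 CPM) overlapped between gates, Cd8b1, the only CD8 gene in the table, was at 3.81 to 5.16 CPM against 6.31 to 7.94 CPM, and Hba-a1 stayed at or below 0.65 CPM. Their part in the RP differences was not tested.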

How the data were processed

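The deposited table holds UMI counts per cell and gene for both gates; per the submitters' processing notes it was made with Cell Ranger and Scanpy 1.7.2 on mm10 (GRCm38), and per the labels' protocols with 10x 3′ v3 or 5′ v2 chemistry, not specified further. Values were whole numbers in all 23595 cells, every gene was found in at least 10 cells, and the 3 hashtag features, 43.8% of all UMIs, were left out. The authors' phenograph clusters and replicate assignments were used; 216 assigned cells had no cluster. No doublet caller was run. Clusters were called "X-like" where at least 3 and 50% of the class's markers had at least 20 CPM and a 1.5-fold level over the median of other clusters (20 CPM added), with at least 2 among the 10 leading genes and more than of any other class; these limits were set after seeing the data.

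UMIs were summed per hashed replicate (3 per gate) and tested with edgeR 4.0.16 in R 4.3.3 (TMM, filterByExpr with a minimum count of 10, robust glmQLFit, glmQLFTest, two-sided, adjusted over all genes tested). CPM beside a gate fold are TMM-scaled, those between clusters are not. UMIs count molecules, so levels were not divided by gene length. The p-values measure the spread between hashed replicates. The submitters call them biological triplicates. Same-numbered replicates of the gates deviated together (correlation of deviations 0.26, 0.15 and 0.28 for numbers 1, 2 and 3). Unlike numbers had -0.29 to 0.06. Deviations cancel within a gate, so like and unlike values are not independent of each other. The blocked value is given where it changes the call of a named member or moves a count of calls by over 1.5 times, and for the Th17-like count. Alternatives were other normalizations, filters, cell sets, DESeq2 1.42.0 and leaving out each replicate. Chosen after seeing the data were the cells outside the Th17-like clusters, RP scaling with equal cells, and the RP share without clusters 11 and 14 (difference -4.30 points) or with 1 cell per clonotype (-3.01 points). Tests ran on simulated data first. Many RP genes have near-identical processed copies, so their levels are uncertain where the authors' counting could split reads. Another 5 genes with related symbols were not members: Rpl36al (59916 UMIs), Rps27rt (5000 UMIs), Rpl10-ps3, Rpl36a-ps1 and Rpl9-ps6. The named genes were, per comparison, the 10 most reduced or raised of those called and a fixed set of paralogues, stalk, X-linked, highest and lowest members; in single clusters the 3 largest. A few members and markers are not reported here. The members and lists were chosen with earlier results of these data known.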

Additional observations from a re-analysis of the deposited data

Results flagged for a closer look

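The gate difference of 14 RP genes differed between the Th2-like cluster 0 and the Th17-like clusters by the interaction test of edgeR (adjusted p below 0.05 over all genes tested). Among those reported here, the log2 difference, cluster 0 minus Th17-like, was 0.37 for Rplp0, 0.38 for Rps19, 0.30 for Rps2, 0.30 for Rpl24, 0.29 for Rpl10 and 0.26 for Rpl32. It was 0.28 for Rps7, 0.28 for Rpl10a, 0.26 for Rps28, 0.25 for Rpl18, 0.29 for Rpl13a and 0.27 for Rpl35. All 14 were above 0. With total UMIs in place of TMM 13 were called, where 112 of 9971 genes were called in that direction. The count ran from 2 to 34 when single replicates were left out, while that over all genes ran from 61 to 222.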

How the results depend on the processing

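Over all cells, 74 or 75 of 81 RP genes fell under RLE, total-UMI and non-RP scaling, with all genes of at least 1 UMI and with DESeq2, where 1382 to 1654 of all genes fell. With the replicate block 78 fell and 1 rose, where 2073 of 11933 genes fell and 2060 rose. When a replicate was left out 59 to 77 fell and 0 or 1 rose, where 1094 to 1547 of all genes fell and 911 to 1456 rose. These settings tested 11905 to 15473 genes. Scaled to summed RP UMIs, 11 fell and 8 rose; by construction this sets the pool to 0, and the log2 change turned positive for Rpl22 (0.047), Rpl3 (0.15), Rpl7 (0.059), Rps4x (0.14), Rplp0 (0.011), Rplp2 (0.0015), Rpl11 (0.20), Rpl41 (0.23), Rpl13 (0.029), Rpl19 (0.044) and Rps15 (0.039). Outside the Th17-like clusters 5 fell, near the share over all genes. The difference in RP share shrank to -0.19 points with equal cells per cluster and was -3.51 to -4.69 points without single replicates. In Th17-like clusters 8 fell and 2 rose after RP scaling. Without single replicates 31 to 50 fell, where 384 to 619 of 9784 to 10628 genes were called lower. The block gave 60, where 966 of 10075 genes were called lower. With equal cells per cluster 1 fell with DESeq2, and 18 fell and 4 rose with the replicate block; 0 passed under the other alternatives run, RP scaling, chosen after seeing the data, included. The count of 14 for the difference between cluster 0 and Th17-like clusters ran from 2 to 34 without single replicates, while that over all genes ran from 61 to 222. In single clusters, the replicate block gave 4 lower and 3 higher in cluster 0, 17 lower in cluster 2, 20 higher in cluster 5 and 38 lower in cluster 11. Total-UMI scaling gave 3 higher in cluster 0, where 75 of 9064 genes were called higher. It gave 8 lower in cluster 1, 11 in cluster 3 and 7 in cluster 11. The other shares over all genes stand with the single clusters above. Of the other lists over all cells, the block gave 3 higher in translation factors, 10 lower in ribosome biogenesis, 2 higher in the Myc network and 2 higher in translation repression. Over all genes it called 2073 of 11933 lower and 2060 higher. Equal cells per cluster left 0 lower and 0 higher in translation factors, 0 lower in biogenesis, 0 lower and 1 higher in the mTORC1 list, 1 lower and 0 higher in the Myc network, 0 lower in snoRNA hosts, 1 higher in mitochondrial RP genes, and 1 lower and 0 higher in translation repression. The cause of these changes was not tested, except where the scale sets them. For the 33 genes named over all cells, 452 single values under alternatives kept direction and call, 21 lost the call, 10 gained it and the 11 above turned; for the 10 named in Th17-like clusters, 128 kept both and 2 lost the call. Beside these counts and the 4 members Rps27l, Rpl11, Rpl41 and Rpl39l, the replicate block changed no call of a named member.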
